A study of Mus musculus with 2 samples.

Results

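The Ikaros zinc finger family comprises 5 genes in the mouse, Ikzf1 (Ikaros), Ikzf2 (Helios), Ikzf3 (Aiolos), Ikzf4 (Eos) and Ikzf5 (Pegasus). Its members were taken by gene symbol from the protein-coding RefSeq transcripts of a table of mRNA abundance, in which 6 of 26968 transcripts and 5 of 20250 genes belonged to the family. All 6 transcripts carried an estimate with the status OK in both libraries. The data come from a study that asked how well chromatin state, transcription and mRNA level foretell protein level at the step from pre-pro-B to pro-B cells. Of it, strand-specific RNA-seq after depletion of ribosomal RNA is described here, with 1 library from Ebf1 -/- pre-pro-B cells and 1 library from Rag2 -/- pro-B cells. Both populations were on a C57BL/6 background and were grown on OP-9 stromal cells, a bone marrow stromal line, with Il-7 at 5 ng/mL. The pre-pro-B culture also received Scf at 10 ng/mL and Flt3l at 10 ng/mL. The Ebf1 null cells came from the liver of female embryos and the Rag2 null cells from the bone marrow of adult males, so cell type, genotype, cytokines, sex, age and tissue of origin cannot be told apart. With 1 library of each kind there is no replicate check, and no test between the cell types was possible. The error given is the 95% confidence interval that Cuffdiff, the program that estimated the transcript levels, wrote beside each value.

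Ikaros family proteins are transcription factors of the lymphoid lineages. Zinc fingers near the amino end bind DNA, and fingers at the carboxyl end join family members into dimers, so that the members present in a cell form mixed complexes. Ikaros is needed for the first steps of lymphocyte development, Aiolos is best known from B cells, Helios and Eos are best known from regulatory and other T cells, and Pegasus is the most divergent member. Ikaros and Aiolos bring corepressors such as the NuRD chromatin remodelling complex to DNA, and alternative splicing of Ikzf1 makes proteins with different numbers of DNA-binding fingers.

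The deposited table separated Ikzf1 into a pair of transcripts, NM_001025597 of 5163 bases and NM_009578 of 4902 bases. On mm9 the longer one has 8 exons between chr11:11586216 and chr11:11672929 on the plus strand, and its length equals that of a transcript of the GENCODE annotation. The 261 bases by which the lengths differ equal exon 4, at chr11:11648314-11648574, which is wholly coding and holds 87 codons with a remainder of 0. Without it, the coding sequence shortens from 1548 to 1287 bases in the same frame. The exon is shown because the level of each Ikzf1 transcript turns on the reads that touch or skip it. Capitals mark the codons of the paired cysteines and paired histidines of a zinc finger, found by their spacing in the reading frame.
Ikzf1 exon 4: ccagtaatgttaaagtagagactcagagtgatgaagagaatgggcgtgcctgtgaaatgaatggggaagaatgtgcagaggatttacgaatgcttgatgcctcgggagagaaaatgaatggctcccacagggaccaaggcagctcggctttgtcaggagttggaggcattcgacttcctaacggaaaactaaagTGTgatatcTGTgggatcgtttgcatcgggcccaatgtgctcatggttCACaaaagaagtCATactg
A search of the coding sequences with that spacing (a TGT or TGC codon, 2 to 4 codons, TGT or TGC, 12 codons, a CAT or CAC codon, 3 to 5 codons, CAT or CAC) found 6 fingers in the longer and 5 in the shorter form. The finger in exon 4 is the first in reading order. The transcripts therefore differ at their junctions, shown with 15 bases on each side and with exon 4 in capitals.
Into exon 4: gtgatcgaggcatggCCAGTAATGTTAAAG
Out of exon 4: AAAGAAGTCATACTGgtgaacggcctttcc
Skipping exon 4: gtgatcgaggcatgggtgaacggcctttcc
The annotation lists 12 protein-coding Ikzf1 transcripts, and 1 of them has the exon chain without exon 4. Forms other than NM_001025597 and NM_009578 were not separated in the deposited table.

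**Figure D1:**
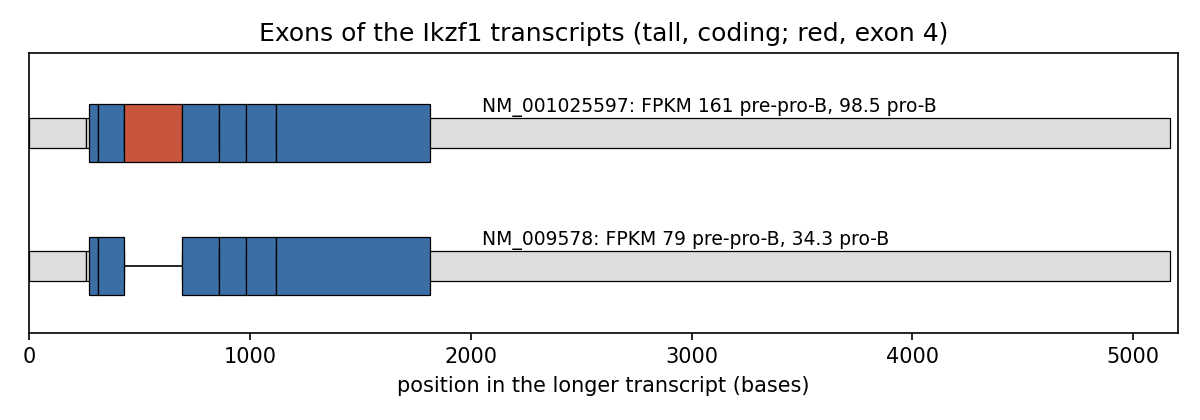
Exons of the Ikzf1 transcripts NM_001025597 (top) and NM_009578 (bottom), drawn to scale along the longer transcript in bases, with tall boxes for coding bases, low boxes for untranslated bases and exon 4 in red. The shorter transcript lacks the 261 bases of exon 4 and is otherwise drawn the same, and the FPKM of each in both libraries stands above it.

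The feature that defines the family is an arrangement of fingers near the start of the coding sequence and at its end. All members had fingers on both sides of the middle of the coding sequence. The codon pattern matched 6 fingers in Ikzf2 and 5 each in Ikzf3, Ikzf4 and Ikzf5. Of these, 3 or 4 lay before the middle of the coding sequence and 1 or 2 after it, with 1 in Ikzf4 alone. How close the later fingers lay to the end was not tested. The pattern finds only fingers with those codons at that spacing. A finger that departs from it would be missed, so the counts may fall short of the fingers in the proteins. Of 22594 genes with a coding sequence in the annotation, 792 genes, or 3.51%, held at least 1 such finger. The first finger of each member, 63 bases long, is shown to let the members be compared, with the cysteine and histidine codons in capitals.
Ikzf1, chr11:11648508-11648570, plus strand: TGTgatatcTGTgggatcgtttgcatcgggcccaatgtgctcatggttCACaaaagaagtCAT
Ikzf2, chr1:69624359-69624421, minus strand: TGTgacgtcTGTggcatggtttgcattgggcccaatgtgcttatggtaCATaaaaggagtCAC
Ikzf3, chr11:98351650-98351712, minus strand: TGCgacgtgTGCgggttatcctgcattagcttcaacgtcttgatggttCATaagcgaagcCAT
Ikzf4, chr10:128078113-128078175, minus strand: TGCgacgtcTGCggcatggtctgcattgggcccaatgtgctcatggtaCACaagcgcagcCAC
Ikzf5, chr7:138537273-138537335, minus strand: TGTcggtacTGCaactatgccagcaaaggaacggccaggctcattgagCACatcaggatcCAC
Against the Ikzf1 finger, 84.1% of bases were identical in Ikzf2, 77.8% in Ikzf4, 63.5% in Ikzf3 and 46.0% in Ikzf5. Ikzf5 was also the member least like Ikzf1 over the aligned coding sequence, at 59.8% identity, whereas Ikzf2, Ikzf3 and Ikzf4 lay between 65.4% and 66.8%. In each of the other members, the coding exon most similar to Ikzf1 exon 4 also touched 1 finger. The best match was a 267-base exon of Ikzf2 with 70.4% of aligned bases identical. The identity was 66.4% in Ikzf4, 59.6% in Ikzf3 and 57.8% in Ikzf5, and that of unrelated exons was not computed.

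Transcript levels are given as FPKM, the fragments of a transcript scaled to its length in kilobases and to the size of the library, so that genes of different length can be compared. Ikzf1 dominated the family in pre-pro-B cells, and Ikzf1 and Ikzf3 together made up most of it in pro-B cells. The summed FPKM of the 5 genes was 255 in the pre-pro-B library and 217 in the pro-B library, 1.17-fold lower in pro-B cells. Ikzf1 held 94.4% of that sum in the pre-pro-B library and 61.1% in the pro-B library. Ikzf3 held 0.185% in the pre-pro-B library and 33.0% in the pro-B library. The share of Ikzf5 was 5.42% and 5.84%, and those of Ikzf2 and Ikzf4 were below 0.05% in both libraries.

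**Figure D2:**
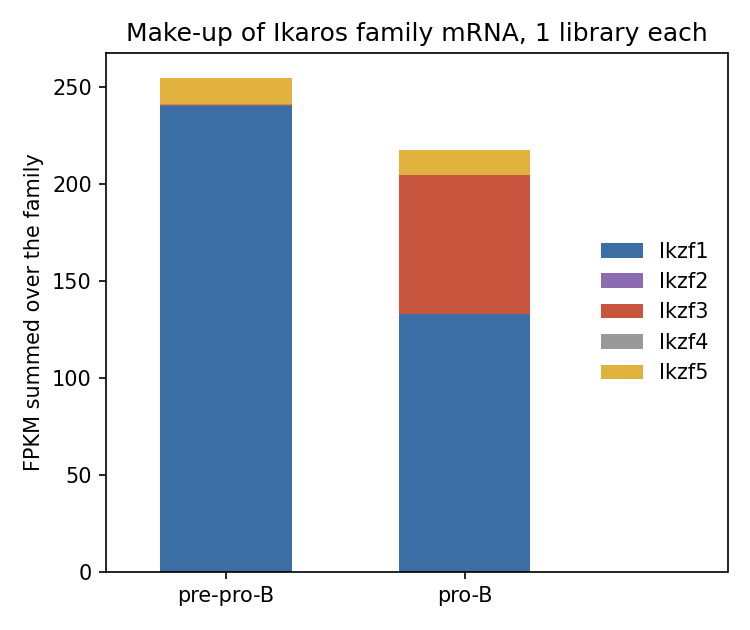
FPKM summed over the Ikaros family (vertical axis) in the pre-pro-B and the pro-B library, stacked by gene. The bars reach 255 and 217 FPKM, and the Ikzf3 segment, too thin to see at 0.471 FPKM in pre-pro-B cells, reaches 71.6 FPKM in pro-B cells, while the Ikzf2 and Ikzf4 segments are too thin to see in both.

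Ikzf3 was the member with the largest ratio between the libraries. Its single transcript, NM_011771, at chr11:98326007-98407345 on the minus strand, was at 0.471 FPKM (95% interval 0 to 1.89) in the pre-pro-B library and at 71.6 FPKM (8.97 to 197) in the pro-B library. Only the pro-B library held Ikzf3 at a level above 1 FPKM, and the intervals did not overlap. The ratio of the FPKM was 152-fold, and on the log2(FPKM + 1) scale, which damps changes of low values, the difference was 5.63. Only 33 of 20250 genes had a larger difference in that direction. At the nominal 90 M reads per library, these FPKM stand for roughly 174 and 26421 fragments. In a library of many cells, fewer cells that hold a transcript and less transcript per cell cannot be told apart.

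With a change called at 2-fold on the log2(FPKM + 1) scale, 1 of 5 family genes was higher in pro-B cells, against 6.34% of all genes, and 0 of 5 were lower, against 9.94%. By the deposited intervals, 1 of 6 family transcripts lay wholly higher in pro-B cells, as did 1.04% of the 15073 transcripts above 0 in both libraries. None lay wholly lower, as did 2.1% of those transcripts.

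**Figure D3:**
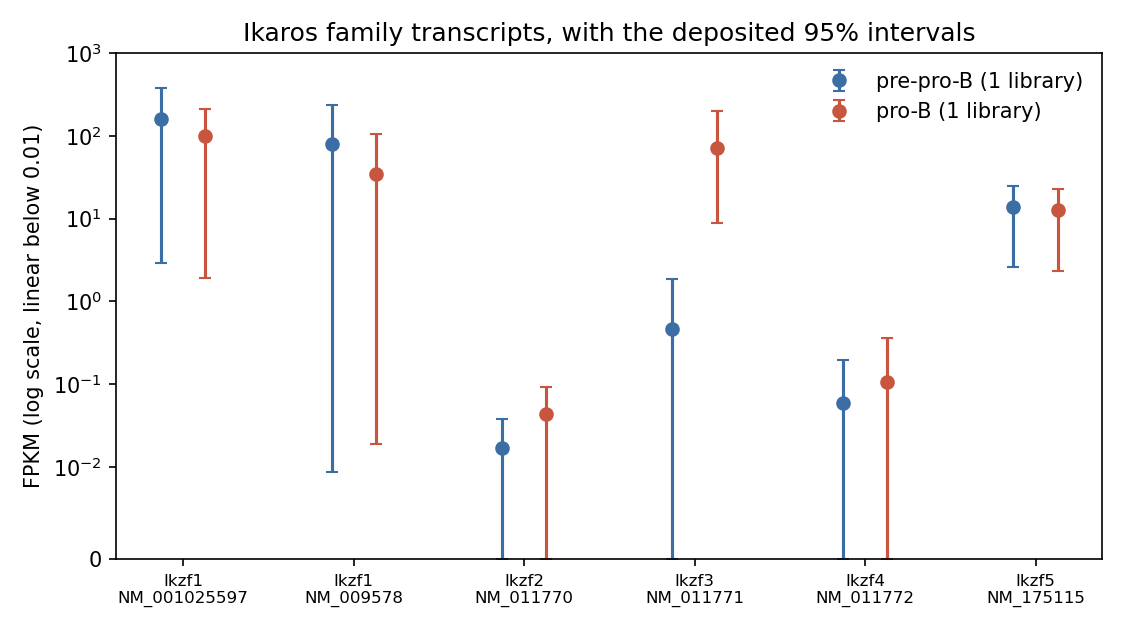
FPKM of the 6 family transcripts in the pre-pro-B (blue) and pro-B (red) library, on a logarithmic axis that is linear below 0.01; points are the deposited values and bars the deposited 95% intervals. The intervals of Ikzf3, 0 to 1.89 and 8.97 to 197 FPKM, do not overlap, and those of the other 5 transcripts do.

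Ikzf1 had the highest level of the family in both libraries, and its sum over transcripts was within 2-fold between them. Its summed FPKM was 240 in the pre-pro-B library and 133 in the pro-B library, 1.81-fold lower in pro-B cells and a log2(FPKM + 1) difference of -0.85. In FPKM the difference of pro-B minus pre-pro-B was -108, beside 71.2 for Ikzf3. The transcript with exon 4, NM_001025597, was at 161 FPKM (2.92 to 374) in the pre-pro-B library and 98.5 FPKM (1.94 to 211) in the pro-B library. The transcript without it, NM_009578, was at 79.0 FPKM (0.00944 to 235) and 34.3 FPKM (0.0192 to 106). Both transcripts were lower in pro-B cells, NM_001025597 by 1.64-fold and NM_009578 by 2.30-fold. The intervals of each overlapped between the libraries, with the upper limits higher in pre-pro-B cells. NM_001025597 took 67.1% of Ikzf1 FPKM in the pre-pro-B library and 74.2% in the pro-B library. The intervals, which for NM_009578 reach nearly to 0, are far wider than this difference in share. Among all genes, 125 had a higher FPKM than Ikzf1 in the pre-pro-B library and 397 in the pro-B library, and 2408 genes fell further on the log2(FPKM + 1) scale.

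Ikzf5 was found at a moderate level in both cell types. Its transcript, NM_175115, at chr7:138532163-138553992 on the minus strand, was at 13.8 FPKM (2.64 to 24.9) in the pre-pro-B library and at 12.7 FPKM (2.30 to 23.1) in the pro-B library, with a log2(FPKM + 1) difference of -0.11. It had the narrowest relative intervals of the family, and these overlapped over most of their length. It ranked above 74.9% of genes in the pre-pro-B library and above 75.3% in the pro-B library.

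Ikzf2 and Ikzf4 were near the limit of detection. Ikzf2, transcript NM_011770 at chr1:69577784-69732534 on the minus strand, was at 0.0172 FPKM (0 to 0.0377) in the pre-pro-B library and 0.0434 FPKM (0 to 0.0923) in the pro-B library. Ikzf4, transcript NM_011772 at chr10:128069471-128083049 on the minus strand, was at 0.0587 FPKM (0 to 0.199) and 0.106 FPKM (0 to 0.364). Every one of these intervals begins at 0, and none reaches 1 FPKM. At the nominal depth the Ikzf2 values stand for about 15 and 37 fragments, a ratio of 2.52 with a counting interval of 1.32 to 4.84. Those of Ikzf4 stand for about 19 and 34 fragments, a ratio of 1.80 with a counting interval of 0.992 to 3.32. Such intervals cover counting error only. A count of 0 would have allowed up to 0.00354 FPKM for Ikzf2 and 0.00931 FPKM for Ikzf4, so both were above the floor of 3 fragments. On the log2(FPKM + 1) scale the differences were 0.04 and 0.06.

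The order of levels was Ikzf1, Ikzf5, Ikzf3, Ikzf4 and Ikzf2 in pre-pro-B cells, and Ikzf3 stood above Ikzf5 in pro-B cells with the rest of the order the same. In pre-pro-B cells the intervals set Ikzf5 apart from Ikzf3, but those of Ikzf3 and Ikzf4 overlapped. In pro-B cells the intervals of Ikzf3 and Ikzf5 overlapped between 8.97 and 23.1 FPKM, and those of Ikzf5 and Ikzf4 were apart. Neighbours Ikzf1 and Ikzf5 in pre-pro-B cells, and Ikzf1 and Ikzf3 in pro-B cells, could not be separated by their intervals, nor could Ikzf4 and Ikzf2 in either library. The ratio of Ikzf1 to Ikzf3 FPKM was 510 in the pre-pro-B library and 1.85 in the pro-B library. The ratio of Ikzf1 to Ikzf5 was 17.4 and 10.5.

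**Figure D4:**
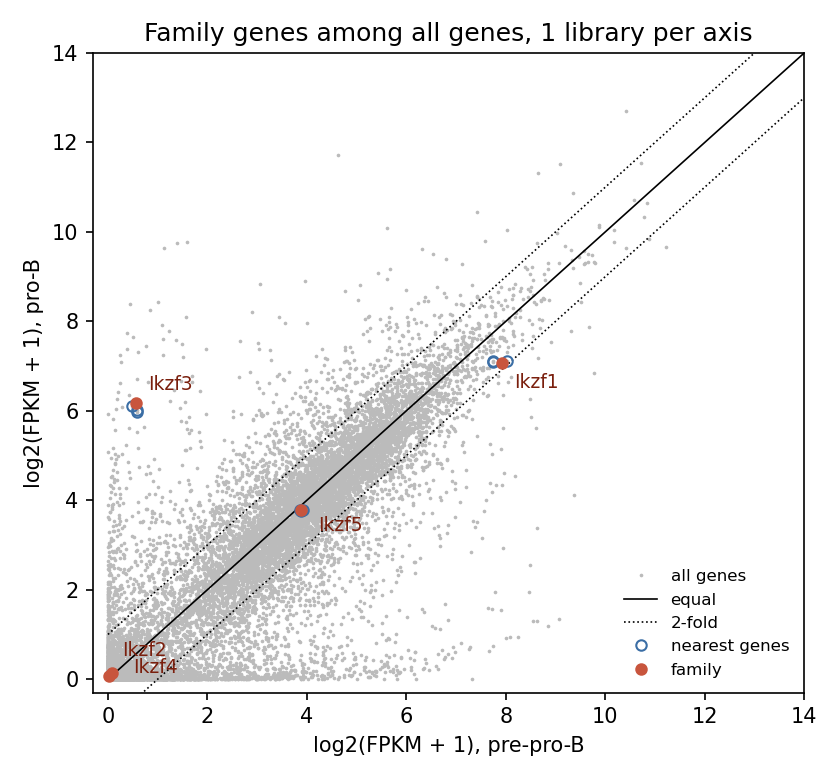
Level of every gene as log2(FPKM + 1) in the pre-pro-B library (horizontal) and the pro-B library (vertical), with the family genes in red, the genes with the nearest levels to Ikzf1, Ikzf3 and Ikzf5 as open circles, a solid line for equal levels and dotted lines at 2-fold. Ikzf3 lies far above the upper dotted line with a difference of 5.63, Ikzf1 and Ikzf5 lie between the dotted lines, and Ikzf2 and Ikzf4 lie near the origin.

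The genes whose pair of levels was most like that of a member were found by the distance of log2(FPKM + 1) over both libraries, 2 values per gene. Nearest to Ikzf3 were Wls, which carries Wnt proteins to the cell surface (0.398 and 67.7 FPKM, distance 0.11), Csrp2, a LIM domain protein (0.497 and 64.1 FPKM, distance 0.16), and Eps8, an actin-binding adaptor (0.503 and 61.9 FPKM, distance 0.21). Nearest to Ikzf1 were Tmem50a, Canx, a chaperone of the endoplasmic reticulum, and Eif4a2, a translation initiation factor, at distances of 0.12, 0.18 and 0.19. Nearest to Ikzf5 were Tnpo2, Zmym5 and Pex3, at distances of 0.022, 0.022 and 0.024.

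Genes that act with Ikaros proteins were measured in the same libraries. Of 13 genes for subunits of the NuRD complex, which joins a chromatin remodelling ATPase to histone deacetylases, all were above 1 FPKM in both libraries. Of them, 2 rose, 4 fell and 7 were within 2-fold, where 6.34% of all genes were higher and 9.94% lower. Of all genes, 49.5% were at 1 FPKM or more in the pre-pro-B library and 46.2% in the pro-B library. A gene below 1 FPKM in both libraries cannot be called at 2-fold on this scale. Here and for the lists below, these shares are therefore not a like base for genes mostly above 1 FPKM. The methyl-CpG binding subunit Mbd2 rose from 54.9 to 234 FPKM and the ATPase Chd3 from 15.4 to 38.0 FPKM. The ATPase Chd4 fell from 126 to 45.8 FPKM, the deacetylase Hdac1 from 11.2 to 1.53 FPKM, Gatad2a from 7.36 to 1.17 FPKM and Mta3 from 42.1 to 11.2 FPKM. Hdac2, the other deacetylase, was at 70.8 and 62.8 FPKM. The intervals of the leading transcripts of all 6 changed genes overlapped between the libraries, and the median log2(FPKM + 1) difference of the list was -0.28, beside 0 over all genes and -0.08 over the 8852 genes at 1 FPKM or more in both libraries.

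Of 5 genes for CtBP and Sin3 corepressors, Rbbp8 (CtIP, a CtBP-binding protein also used in DNA repair) rose from 20.1 to 46.5 FPKM and the other 4 were within 2-fold, with a list median of -0.09. Of 11 genes for enzymes that modify Ikaros proteins, namely casein kinase 2, protein phosphatase 1 and the cereblon ubiquitin ligase, Ppp1cb rose from 160 to 446 FPKM and 10 were within 2-fold, with a list median of 0.09. Over all genes 6.34% were higher and 9.94% lower, and 1 call in lists this short is not read as a trait of either list. Crbn, the subunit through which lenalidomide-type drugs direct Ikaros and Aiolos to the proteasome, was at 38.0 and 33.5 FPKM.

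Of 17 genes described as targets of Ikaros or Aiolos, 9 rose, 4 fell and 4 were within 2-fold, with a median log2(FPKM + 1) difference of 1.12, where again 6.34% of all genes were higher and 9.94% lower. The cell cycle genes Ccnd3, for cyclin D3, and Cdkn1b, for the inhibitor p27, rose from 50.1 to 577 FPKM and from 33.7 to 112 FPKM. Of the pre-B cell receptor, the surrogate light chain genes Igll1 and Vpreb1 rose from 1.17 to 798 FPKM and from 0.359 to 335 FPKM, and the adaptor gene Blnk from 1.83 to 147 FPKM. The transcription factor gene Foxo1 rose from 1.78 to 53.3 FPKM, the recombinase gene Rag1 from 24.4 to 64.4 FPKM, the repressor gene Bcl6 from 7.13 to 16.7 FPKM and Ptk2, for focal adhesion kinase, from 0.315 to 4.44 FPKM. The cytokine receptor gene Flt3 fell from 303 to 0.916 FPKM, Dntt, for terminal transferase, from 17.0 to 0.683 FPKM, Myc from 19.0 to 5.88 FPKM and the integrin gene Itga5 from 1.41 to 0.0883 FPKM. Il7r was at 349 and 424 FPKM and Syk at 99.3 and 74.2 FPKM. By their leading transcripts, the intervals of Igll1, Vpreb1, Blnk, Foxo1 and Flt3 did not overlap between the libraries, and those of the other 8 changed targets did. Of the 15073 transcripts above 0 in both libraries, 1.04% lay wholly higher in pro-B cells and 2.1% wholly lower. The changed targets had already been picked for a large difference, so these shares are not a like comparison. Igll1, Vpreb1 and Blnk are also among the B lineage markers below, and Flt3 is among the progenitor markers, so these lists are not independent.

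**Figure D5:**
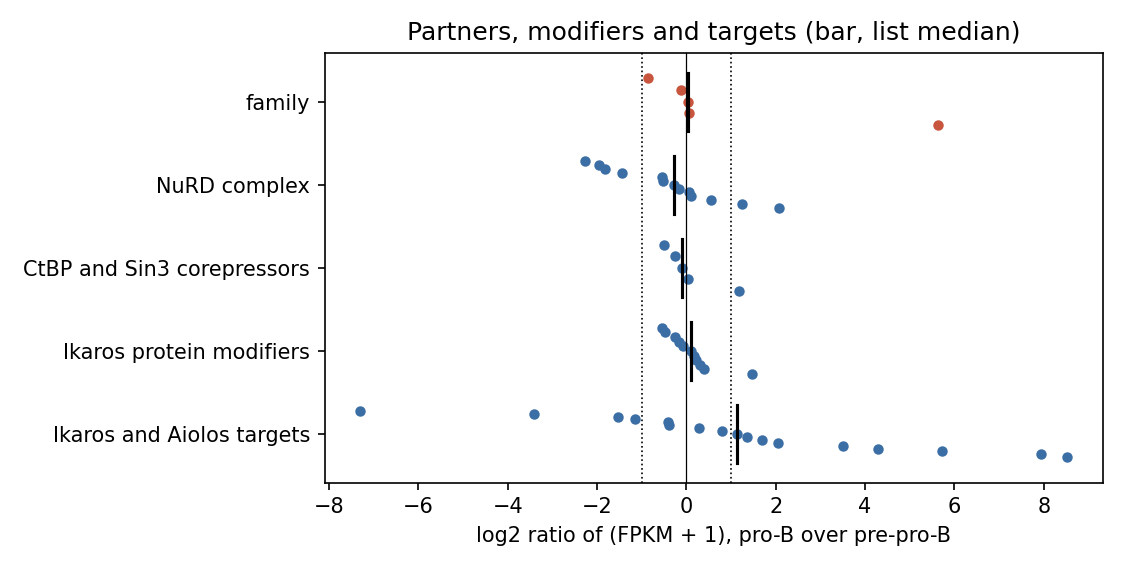
Log2 ratio of FPKM + 1, pro-B over pre-pro-B (horizontal axis), for each gene of the family (red) and of the lists of partners, modifiers and targets (blue), 1 point per gene, with a bar at the median of each list and dotted lines at 2-fold. The targets spread from -7.31 to 8.52, whereas 10 of 11 modifiers lie between the dotted lines.

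The labels were compared with marker genes. All 7 B lineage markers were higher in pro-B cells, from 6.82 to 2047 FPKM in all, and all 3 progenitor markers were lower, at 944 and 2.82. Ebf1 was at 64.0 FPKM in its own null library and at 273 FPKM in pro-B cells, and Rag2 at 34.5 FPKM in pre-pro-B cells and at 22.9 FPKM in its own null library, so neither was at 0. A transcript total does not show whether the deleted part is present. Some markers of other blood lineages were lower in pro-B cells, as Ikzf1 was. Of 7 T lineage markers 2 were lower, 0 higher and 5 within 2-fold, and the list summed to 39.4 and 0.239 FPKM, with Cd3g at 36.8 and 0.0351, Cd4 at 1.15 and listed at 0, and 4 markers, Cd4 among them, at 0 in pro-B cells. The 5 within 2-fold were below 1 FPKM in both libraries, so Cd3g makes up most of the pre-pro-B sum. Of 6 myeloid markers 4 were lower and 0 higher, and the list summed to 63.6 and 6.66 FPKM, with Mpo at 35.7 and 0.122, Itgam at 19.7 and 6.40, Lyz2 at 5.39 and listed at 0, and Cebpa at 2.48 and 0.116. All 3 NK markers were lower, with sums of 26.0 and 3.37 FPKM. At harvest, residual OP-9 cells were left to attach to a fresh flask for 30 minutes and only cells in suspension were taken. Markers of stromal cells summed to 18.8 and 10.1 FPKM over 7 genes, 2 of them higher and 1 lower, with Pdgfrb at 15.9 and 0.377 and with Postn at 0 in both. Within that list, Col1a2 was at 0.707 and 2.82 FPKM, Acta2 at 0.608 and 2.39, Col3a1 at 0.242 and 1.13, and Sparc at 1.13 and 2.81. Their part in the Ikzf1 and Ikzf3 values was not tested.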

How the data were processed

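Per the labels, total RNA with an RNA integrity number of 9.9 was freed of RNAs under 200 nt and of ribosomal RNA, and 97 bp single-end reads were sequenced to a nominal 90 M per library. The authors aligned these reads to mm9 with TopHat, given as version 1.5 in the submitters' processing notes, and deposited FPKM per RefSeq transcript with 95% intervals, made with Cuffdiff 2.1.1 with multi-read and fragment bias correction and no scaling between libraries. Reads that match several transcripts were shared out by the program, so FPKM of transcripts of the same gene are not independent. A further deposited table holds the authors' log2 ratios, p-values and q-values, which were not used.

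Of 30485 deposited rows, 26968 were protein-coding, and 26555 of these matched a RefSeq gene symbol (413 did not). FPKM were summed per gene, and log2 ratios used a pseudocount of 1. Fragments were approximated from FPKM, length and nominal depth, since the files give no counts. The nominal depth is of reads sequenced rather than reads aligned, so the fragments, counting intervals and floors are rough. Exons, coding sequences and coordinates are those of the mm9 genome with GENCODE, and gene symbols come from a RefSeq table of a later assembly. The shorter Ikzf1 transcript was matched by exon chain and length difference. For the other members the longest complete coding sequence was taken. Named genes were the members, list genes past 2-fold, T lineage, stromal and myeloid markers at 1 FPKM or more, and the 3 nearest genes of each member at 1 FPKM or more; Crbn, Hdac2, Il7r and Syk were added after their values were seen. 1 further marker list is not reported here. The members and lists were chosen with earlier results of these data known. The sums per gene, log2 ratios and 2-fold calls were tested on simulated FPKM with known folds and no noise, and the other steps were not. The calculations used Biopython 1.88, pandas 2.3.3, numpy 2.4.6, matplotlib 3.10.9 and scipy 1.17.1 under Python 3.11.15.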

Additional observations from a re-analysis of the deposited data

How the results depend on the processing

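Of 71 values recomputed under other settings, 57 moved by less than the counting interval reaches to either side on average or, for counts of genes, stayed within 1.5 times the reported count, and 14 moved further. A change of direction was looked for only in log2 differences reported past 2-fold, which among the members was Ikzf3 alone, and 0 were found. Some of the 57 could not move. The further deposited table repeats the same FPKM, and the most abundant transcript of a member with a single transcript is the same transcript. The filter on FPKM leaves the ratio of a kept gene as it was. The counting interval is wide for low genes, so the 57 include Ikzf4 without a pseudocount, with a log2 difference of 0.85 against 0.06 as reported. The Ikzf1 log2 difference was -0.95 as TPM, -0.76 with median-ratio scaling, which shifts log2 ratios by 0.09 before the pseudocount, and -0.71 for the most abundant transcript. That of Ikzf3 was 6.97 with a pseudocount of 0.1, 7.25 with none and 6.38 as TPM, and that of Ikzf5 was -0.21 as TPM and -0.029 with median-ratio scaling. TPM itself shifts log2 ratios by -0.095 before the pseudocount. The higher Ikzf3 value as TPM therefore comes from the pseudocount of 1, which weighs less on the TPM scale. Without a pseudocount Ikzf2 reached 1.34, so 2 of 5 members were past 2-fold. With genes at 1 FPKM or more in both libraries, 0 of 2 members and 8 of 12 targets were past 2-fold, 7 higher and 1 lower, and Ikzf2, Ikzf3 and Ikzf4 gave no value because the filter removed them. As a share of fragments, NM_001025597 made up 68.3% of Ikzf1 in pre-pro-B and 75.1% in pro-B cells. No paired analysis was possible because each cell type has 1 library, and no replicate could be left out. The depth limits Ikzf2 and Ikzf4, which rest on fewer than 40 fragments in each library, and the split of Ikzf1 into transcripts rests on intervals that reach nearly to 0.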

Other observations

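The nearest measured neighbours of the members were chosen after their values were seen. Beside Ikzf3 in the genome, Grb7, an adaptor protein gene 9319 bases away on one side, was at 0.0272 FPKM in pre-pro-B and 0.0324 FPKM in pro-B cells, and Zpbp2, 5065 bases away on the other side, was listed at 0 and at 2.34 FPKM. Fignl1, 27361 bases from Ikzf1, was at 26.2 and 87.8 FPKM, and Spata48, 171022 bases from it on the other side, was at 0.514 FPKM and listed at 0. Acadsb, 122 bases from Ikzf5, was at 28.4 and 11.6 FPKM, and Pstk, 810 bases from it on the other side, was at 7.94 and 6.92 FPKM. Suox, 23893 bases from Ikzf4, was at 9.19 and 1.40 FPKM, and the ribosomal protein gene Rps26, 5908 bases from it, was at 639 and 659 FPKM. Both neighbours of Ikzf2, Erbb4 and Spag16, were listed at 0 in both libraries. The GENCODE annotation places genes on the opposite strand over Ikzf1 and Ikzf4, a small nuclear RNA gene over Ikzf3 and a transcript of Fgfr2 on the same strand over Ikzf5.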
